A study of Homo sapiens with 16 samples.

Results

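The 36 genes described here encode aminoacyl-tRNA synthetases, 20 of the cytosolic set and 16 of the mitochondrial set. They were taken by symbol from a written list. The mitochondrial set holds the symbols that end in 2. All 36 were among the 23228 gene rows of every file, and all 36 passed the filter on low counts, which kept 13948 genes. Symbols are given as deposited, in older forms such as AARS for AARS1.

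RNA was sequenced from MDA-MB-231, an established human breast cancer line of mesenchymal character that lacks the hormone receptors. There were 4 treatments: DMSO as solvent, MMS (methyl methanesulfonate), which methylates DNA, sorafenib (1 µM), which inhibits several kinases, and a combination in which 12 h on sorafenib (1 µM) preceded MMS. The series text gives the MMS dose as 40 µg/mL and the sample labels as 40 µM, and the discrepancy could not be settled. RNA was taken at 8 h and 24 h, in the combination counted from the addition of MMS, so that its cells had been on sorafenib for 12 h longer than cells on sorafenib alone. Each of the 8 groups held 2 libraries, 16 in all, from what the series text calls independent experiments of a single cell line.

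Aminoacyl-tRNA synthetases join each amino acid to its tRNA and so supply the ribosome with charged tRNA. Most amino acids have a cytosolic enzyme and a separate nuclear-encoded mitochondrial enzyme, but GARS and KARS each supply both compartments from the same gene, and EPRS charges both glutamate and proline tRNA. Several cytosolic enzymes sit together in a multisynthetase complex held by scaffold proteins. When uncharged tRNA accumulates or other stresses act, the kinase GCN2 and its relatives phosphorylate the initiation factor eIF2, and translation of the transcription factor ATF4 goes up. Many cytosolic synthetase genes are known ATF4 targets, through promoter elements whose core reads TGATGNAA.

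The stretches of promoter that hold this core are printed because the members that have one include 6 of the 9 that rose after MMS at 8 h. Of the 12 that rose at 24 h, 4 had it. RefSeq promoter windows on GRCh38.p14, from 250 bases before to 50 bases after an annotated start, were at hand for 30 of the 36 members, 16 cytosolic and 14 mitochondrial. No entry was found for DARS, LARS, VARS, YARS, AARS2 and VARS2. YARS, among the 9 that rose at 8 h, and AARS2 and VARS2, among the 12 at 24 h, thus could not be searched. The letters TGATGNAA, searched on both strands, occurred in 7 of the 16 cytosolic genes and 1 of the 14 mitochondrial genes, and in 4.46% of the 27305 genes that have a window. The narrower TGATGCAA, which is contained in TGATGNAA, occurred in 6 of the 16 cytosolic genes, 0 of the 14 mitochondrial genes and 1.08% of all genes. Each run reads 5′ to 3′ on the strand of its gene, the capitals mark the match, and a core that ends in CATCA is read on the other strand. The matches are descriptions of letters, not of bound sites.
AARS (chr16:70289662-70289717, minus strand, match begins 187 bases before the start): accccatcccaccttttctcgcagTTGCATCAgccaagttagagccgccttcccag
CARS (chr11:3057407-3057436, minus strand, 2 bases before the start): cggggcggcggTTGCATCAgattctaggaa
GARS (chr7:30594821-30594876, plus strand, 33 bases before the second annotated start): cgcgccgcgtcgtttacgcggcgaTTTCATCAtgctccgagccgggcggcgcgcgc
IARS (chr9:92293698-92293734, minus strand, 13 bases before the start): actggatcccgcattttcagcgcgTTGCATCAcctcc
MARS (chr12:57488053-57488082, plus strand, 4 bases before the start): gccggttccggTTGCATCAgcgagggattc
NARS (chr18:57621804-57621833, minus strand, from base 15 of the transcript): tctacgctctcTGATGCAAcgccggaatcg
TARS (chr5:33440956-33440985, plus strand, from base 3 of the transcript): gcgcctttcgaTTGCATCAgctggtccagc
YARS2 (chr12:32756063-32756118, minus strand, 197 bases before the start): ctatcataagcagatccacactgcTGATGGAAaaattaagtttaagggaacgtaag
In CARS, MARS, NARS and TARS the match touched or lay within the first bases of the transcript, and in AARS and YARS2 it lay far upstream.

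Gene reads ranged from 16774156 to 26448212 per library. Counts of a cytosolic member in a library ranged from 1465 to 24195 and those of a mitochondrial member from 189 to 7547, so that every member was counted well above the range where single reads matter. Levels below are counts per 1000000 gene reads (CPM) for replicate 1 and then replicate 2. The line's markers VIM, CD44, AXL, CAV1 and ZEB1 were present at between 56.8 and 2480 CPM in every library, and the sixth listed marker, SPARC, was below 1 CPM (0.114 to 0.965). Of the markers of other cell types, the 9 luminal genes summed to between 485 and 912 CPM, led by KRT8, KRT18 and KRT19, with ESR1 at 0 to 0.224 CPM. The 5 fibroblast genes summed to 7.56 to 34.4 CPM and the 4 endothelial genes to 5.27 to 17.7 CPM. The 4 leukocyte genes summed to 90.5 to 164 CPM, of which CD68 gave 90.1 to 164 and MS4A1 was at 0. In bulk RNA a change in the cells that survive and a change of RNA per cell cannot be told apart.

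In untreated cells the cytosolic genes stood well above the mitochondrial genes. At 8 h in DMSO the 20 cytosolic genes summed to 5914 and 5801 CPM and the 16 mitochondrial genes to 804 and 785 CPM, a ratio of 7.35 and 7.39. Per kilobase of merged coding-transcript exons (GENCODE v29), the mean DMSO level at 8 h ran from 32.1 CPM per kb for FARSB to 204 for GARS in the cytosolic set. GARS, the glycyl enzyme, led with 201 and 207 CPM per kb, and SARS, the seryl enzyme, followed with 151 and 155. IARS (mean 139), FARSA (mean 132) and TARS (mean 123) came next, and the libraries of neighbours among those 3 overlapped. In the mitochondrial set 15 genes lay between 5.41 (PARS2) and 20.6 (CARS2) CPM per kb. IARS2, the mitochondrial isoleucyl enzyme, stood apart with 81.5 and 77.5 CPM per kb, within the range of the cytosolic genes.

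At 8 h after MMS, the cytosolic set had moved up in part. Of the 20 cytosolic genes 8 rose and 0 fell, namely SARS, CARS, GARS, WARS, YARS, TARS, MARS and AARS, against 14.5% of all genes tested that were called higher and 12.0% called lower (edgeR quasi-likelihood test, Benjamini-Hochberg adjusted p under 0.05). Of the 16 mitochondrial genes 1 rose (YARS2) and 2 fell (FARS2 and HARS2). The share lower (12.5%) is close to that of all genes and the share higher (6.25%) is below it. The median log2 change was 0.23 over the cytosolic genes and -0.12 over the mitochondrial genes, beside 0.00 over all genes tested. In a fit with the start of the sample title, which may mark the experiment, as a replicate block, 11 cytosolic genes were higher and 1 lower, and 3 mitochondrial genes higher and 5 lower, against 22.4% higher and 20.9% lower of all genes. DESeq2 called 8 cytosolic genes higher and 1 lower, beside 1992 and 1810 of all genes. A filter at a mean count of 50 gave 7 higher and 1 lower, beside 1882 and 1792. The summed cytosolic level was 7414 and 6904 CPM after MMS and the summed mitochondrial level 764 and 711 CPM. Their ratio of 9.70 and 9.72 lay above the 7.35 and 7.39 of DMSO in both replicates, and the replicates differed by far less than the groups. IARS2 alone gave 290 and 276 CPM of the mitochondrial sum in DMSO and 261 and 232 CPM after MMS.

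**Figure D1:**
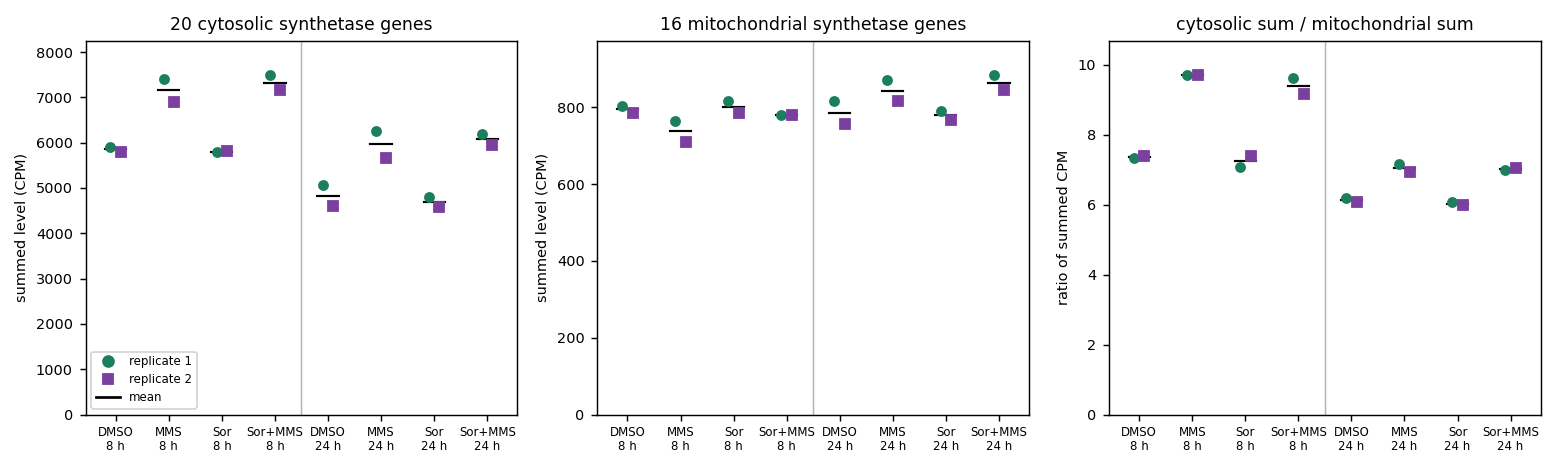
Summed level of the 20 cytosolic genes (left, CPM), of the 16 mitochondrial genes (middle, CPM) and their ratio (right) in each of the 16 libraries, with circles for replicate 1, squares for replicate 2 and a line at the group mean. The ratio was 9.70 and 9.72 after MMS at 8 h against 7.35 and 7.39 in DMSO, and at 24 h 7.18 and 6.94 against 6.20 and 6.08. In the mitochondrial sum at 24 h, IARS2 alone gave 268 and 245 CPM after MMS and 322 and 280 CPM in DMSO.

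SARS, which charges serine tRNA, changed the most among the cytosolic genes at 8 h. It stood at 293 and 301 CPM in DMSO and at 532 and 498 CPM after MMS. Both MMS libraries lay far above both DMSO libraries, a log2 change of 0.83 ± 0.11 (SE, 1.78-fold, adjusted p = 0.000186), and the values within the title starts were 0.86 and 0.72. CARS, the cysteinyl enzyme, went from 164 and 150 CPM to 268 and 254 CPM, again without overlap. Its log2 change was 0.77 ± 0.11 (adjusted p = 0.000279), and 0.71 and 0.76 within the title starts. WARS, the tryptophanyl enzyme, which interferon also induces, went from 187 and 200 CPM to 307 and 302 CPM. It had the smallest adjusted p of the 36 genes (0.000147) with a log2 change of 0.69 ± 0.09.

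GARS, the gene with the highest level per kilobase, went from 532 and 548 CPM to 915 and 813 CPM (log2 change 0.72 ± 0.11, adjusted p = 0.000601). TARS, the threonyl enzyme, went from 542 and 577 to 750 and 702 CPM (0.41 ± 0.07, adjusted p = 0.00121), and YARS, the tyrosyl enzyme, from 316 and 280 to 440 and 393 CPM (0.52 ± 0.13, adjusted p = 0.0116). In these 3 genes too, both MMS libraries lay above both DMSO libraries, as in 28.6% of all genes tested. The smallest rises were those of MARS at 239 and 228 against 298 and 272 CPM (0.33, adjusted p = 0.0464) and of AARS at 216 and 217 against 257 and 257 CPM (0.29, adjusted p = 0.0281). MARS and AARS lost the call when any of the 4 DMSO and MMS libraries at 8 h was left out (adjusted p from 0.0955 to 0.248), and in a fit of those 4 libraries alone (0.0577 and 0.0557). MARS also lost it with RLE factors (0.0608), with no scaling (0.0504) and with a mean count filter of 50 (0.0556). YARS lost it without MMS replicate 1 or DMSO replicate 2 (0.0934 to 0.105). SARS, CARS, WARS, GARS and TARS kept it in each of those fits. MARS shares 62 exon bases with DDIT3 on the opposite strand, and DDIT3 rose by a log2 change of 2.10 at 8 h. Whether DDIT3 reads entered the MARS count was not tested.

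The other 12 cytosolic genes did not pass at 8 h, with log2 changes from -0.30 (QARS) to 0.25 (NARS). The 3 with the largest adjusted p were both subunits of the phenylalanyl enzyme and RARS. FARSA stood at 288 and 263 CPM in DMSO and 279 and 285 CPM after MMS (log2 change 0.07, adjusted p = 0.685). FARSB stood at 114 and 102 CPM and then 118 and 103 CPM (0.06, adjusted p = 0.764). RARS, the arginyl enzyme, stood at 217 and 185 CPM and then 230 and 177 CPM (0.06, adjusted p = 0.861). In all 3 the groups overlapped, and the replicates of RARS differed more than the groups. Under the block, NARS (0.24, adjusted p = 0.00722), IARS (0.24, 0.0166) and EPRS (0.21, 0.0237) joined the higher genes, and QARS, the glutaminyl enzyme, was lower (-0.30, 0.00115). QARS stood at 166 and 182 CPM in DMSO and 133 and 143 CPM after MMS, without overlap.

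FARS2, the mitochondrial phenylalanyl enzyme, had the largest change of all 36 genes at 8 h. It went from 24.0 and 23.0 CPM in DMSO to 12.7 and 11.6 CPM after MMS. The MMS libraries held about 0.531 of the DMSO level, a log2 change of -0.91 ± 0.14 (adjusted p = 0.000479), and -0.92 and -0.99 within the title starts. The call held without each of the 4 libraries in turn. FARS2 is also by far the longest of the 36 genes, with a span of 568.1 kb in GENCODE v29, ahead of LARS2 at 160.9 kb. Of the 285 genes tested that span 400 kb or more, 36.8% were called lower after MMS at 8 h and the median log2 change was -0.54, whereas of the 4394 genes under 20 kb 8.63% were lower and the median was 0.02. A span was found for 87.6% of the genes tested, and the part of gene length in the FARS2 change was not tested. LARS2, NARS2 (138.9 kb) and WARS2 (109.5 kb), the next longest members, had log2 changes of -0.13, -0.04 and 0.19 and did not pass.

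YARS2, the mitochondrial tyrosyl enzyme, was the 1 mitochondrial gene that rose at 8 h. It went from 34.5 and 32.2 CPM to 51.2 and 45.4 CPM, a log2 change of 0.57 ± 0.11 (adjusted p = 0.00208). Both MMS libraries lay above both DMSO libraries, as they did for its cytosolic partner YARS, whose change was 0.52. HARS2, the mitochondrial histidyl enzyme, went from 42.0 and 41.7 CPM to 36.8 and 31.5 CPM (-0.25 ± 0.09, adjusted p = 0.0488). HARS2 lost the call without DMSO replicate 1, DMSO replicate 2 or MMS replicate 2 (adjusted p from 0.106 to 0.29), in DESeq2 (0.0538), with no filter on low counts (0.136) and in a fit of the compared libraries alone (0.166). HARS and HARS2 lie head to head, their starts 85 bases apart, their promoter windows sharing 184 bases and their exons 402 bases on opposite strands. HARS stood at 156 and 150 CPM in DMSO and 159 and 155 CPM after MMS (0.08, adjusted p = 0.447).

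The remaining 13 mitochondrial genes had log2 changes from -0.32 (SARS2) to 0.33 (VARS2) at 8 h. The 3 furthest from the threshold were LARS2 at 53.4 and 60.5 against 51.0 and 50.7 CPM (-0.13, adjusted p = 0.587), NARS2 at 25.5 and 25.8 against 26.8 and 21.7 CPM (-0.04, adjusted p = 0.869) and EARS2 at 42.2 and 35.2 against 42.6 and 29.9 CPM (-0.05, adjusted p = 0.898). The groups overlapped for NARS2 and EARS2. Both MMS libraries lay below both DMSO libraries for 9 of the 16 mitochondrial genes and above for 4, beside 33.4% and 28.6% of all genes tested. For the cytosolic genes the counts were 2 of 20 below and 11 above. Under the block, RARS2 (0.31, adjusted p = 0.0103) and VARS2 (0.33, 0.00638) were higher, and SARS2 (-0.32, 0.0181), MARS2 (-0.25, 0.0494) and CARS2 (-0.22, 0.0495) were lower.

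**Figure D2:**
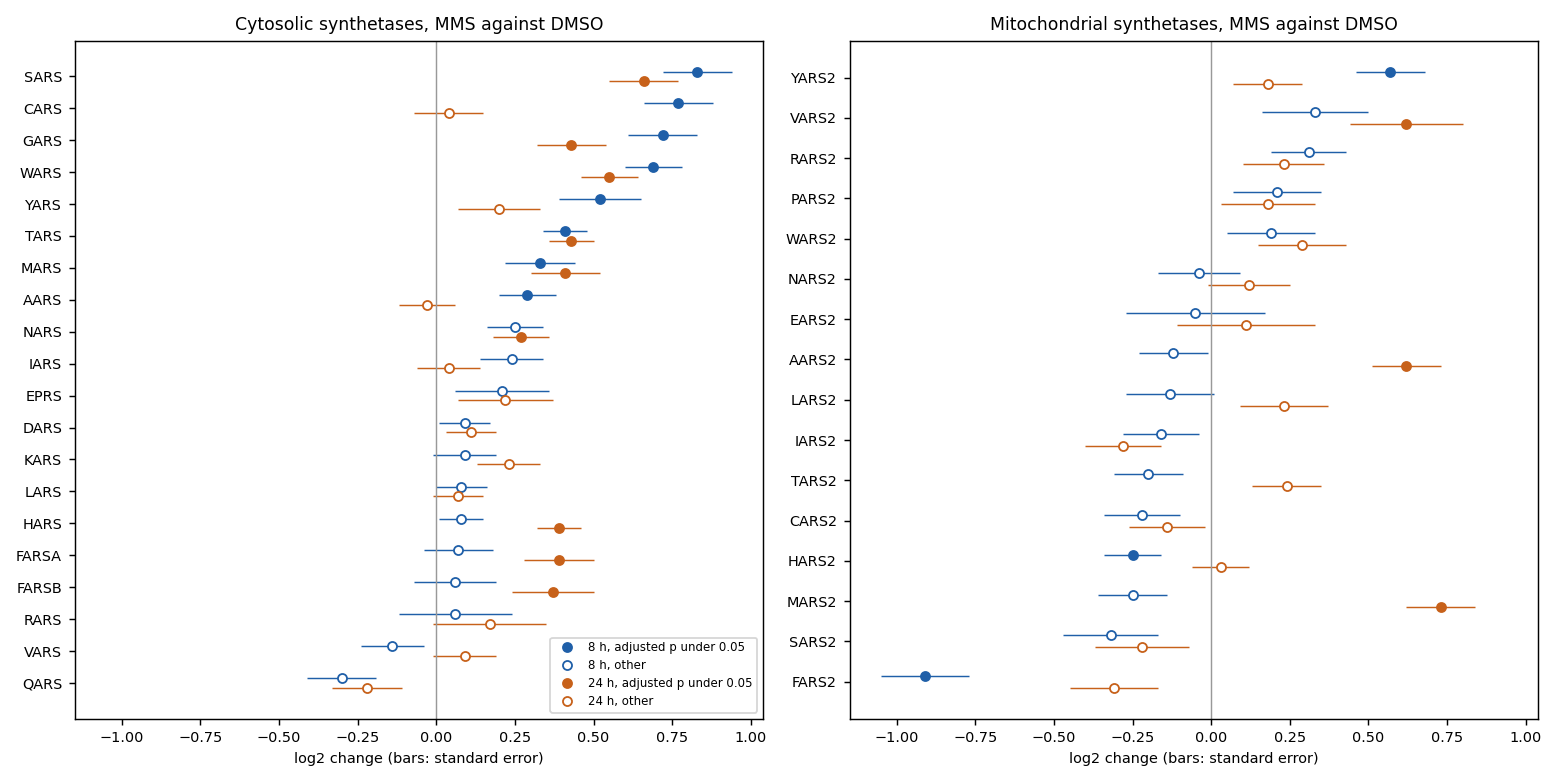
Log2 change of each cytosolic gene (left) and mitochondrial gene (right) between MMS and DMSO, at 8 h in blue and 24 h in orange, with bars for the standard error and filled points for an adjusted p under 0.05. At 8 h the cytosolic genes ran from -0.30 (QARS) to 0.83 (SARS) and the mitochondrial genes from -0.91 (FARS2) to 0.57 (YARS2).

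For 13 amino acids the list holds 1 cytosolic and 1 mitochondrial gene. At 8 h the cytosolic change was above the mitochondrial one in 10 of these 13 pairs, with a median difference of 0.40 on the log2 scale. The widest gaps were SARS over SARS2 (1.15) and CARS over CARS2 (0.99). The reverse held for VARS and VARS2 (-0.47), RARS and RARS2 (-0.25) and YARS and YARS2 (-0.05). At 24 h the cytosolic change was above in 8 of the 13, with a median difference of 0.15. AARS and AARS2 (-0.65), MARS and MARS2 (-0.32) and LARS and LARS2 (-0.16) had turned, and YARS and YARS2 (0.03) had turned the other way. The differences within pairs were not tested. Among the cytosolic genes, 1 of the 8 members of the multisynthetase complex (MARS) rose at 8 h, and 7 of the 12 genes outside it, beside 14.5% of all genes. In the blocked fit 3 of the 8 were higher and 1 lower, and 8 of the 12 higher. The unblocked medians were 0.09 inside and 0.35 outside, a split of listed genes by background knowledge that carries no test.

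Of the 7 cytosolic genes with the TGATGNAA core printed above, 5 rose at 8 h (AARS, CARS, GARS, MARS and TARS). Their median log2 change with IARS and NARS was 0.33. Of all genes tested, 14.5% were called higher at 8 h. The share called higher among all 1217 genes with the core was not counted. The 8 h calls were also the reason for printing this core, so the split carries no test. The calls of AARS and MARS were lost in a fit of the 4 DMSO and MMS libraries at 8 h alone. That of MARS was also lost with RLE factors, with no scaling and with a mean count filter of 50. Of the 9 cytosolic genes with a window but without these letters, 2 rose, SARS and WARS, and the median was 0.08. At 24 h the split was not seen: 4 of the 7 with the core rose (median 0.27) and 5 of the 9 without it (median 0.37). Of all genes, 15.2% were called higher then. In sorafenib cells, 5 of the 7 with the core rose after MMS at 8 h (median 0.36) and 2 of the 9 without it (median 0.11). At 24 h in sorafenib cells it was 4 of the 7 (median 0.40) and 6 of the 9 (median 0.35). The shares of all genes called higher in sorafenib cells were 13.0% at 8 h and 18.0% at 24 h. SARS, the gene with the largest cytosolic change, thus had no match in the window, which says only that these letters are not in it. The only mitochondrial gene with a match was YARS2, the only mitochondrial gene that rose at 8 h in the unblocked fit. At 24 h YARS2 was not called. MARS2, which rose at 24 h, had a window without these letters, and AARS2 and VARS2, which also rose then, had no window. The ETS-type core CCGGAAGT was in 5 cytosolic and 3 mitochondrial genes, beside 4.95% of all genes. It too went with larger cytosolic changes at 8 h, so a split of this kind was not particular to TGATGNAA. Of the 5 cytosolic genes with CCGGAAGT 3 rose (median 0.41), and 4 of those with a window but without it (median 0.21). The mitochondrial medians were -0.05 with it and -0.16 without. The NRF1-type core GCGCATGC was in 0 cytosolic genes and in MARS2 and YARS2, beside 3.68% of all genes.

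At 24 h, 9 cytosolic genes rose after MMS against DMSO and 0 fell, with 15.2% of all genes tested called higher and 16.3% lower. SARS, WARS, TARS, GARS and MARS had risen at 8 h as well, and FARSA, FARSB, HARS and NARS rose at 24 h without a call at 8 h. The median was 0.23 over the cytosolic genes and 0.18 over the mitochondrial genes, beside 0.00 over all genes. Of the 16 mitochondrial genes AARS2, MARS2 and VARS2 rose (18.8%, close to the share of all genes) and 0 fell. The blocked fit had 13 cytosolic genes higher and 1 lower, and 6 mitochondrial genes higher and 2 lower, against 23.0% and 25.2% of all genes. The summed cytosolic level was 5059 and 4595 CPM in DMSO and 6249 and 5671 CPM after MMS. The mitochondrial sum was 816 and 756 CPM and then 870 and 817 CPM. The cytosolic sums of the groups did not overlap, and the ratio of the sums was 6.20 and 6.08 in DMSO and 7.18 and 6.94 after MMS. This ratio leans on 1 gene, IARS2, which gave 322 and 280 CPM of the mitochondrial sum in DMSO. After MMS IARS2 stood at 268 and 245 CPM (-0.28, adjusted p = 0.0827, or 0.00279 with the replicate block). The ratio is thus not a measure of the mitochondrial genes as a class, whose median (0.18) lay near the cytosolic one (0.23).

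SARS remained the cytosolic gene with the largest change at 24 h. It stood at 238 and 210 CPM in DMSO and 399 and 332 CPM after MMS (log2 change 0.66 ± 0.11, adjusted p = 0.00101). WARS stood at 156 and 141 CPM and then 241 and 209 CPM (0.55 ± 0.09, adjusted p = 0.000827). Neither gene's groups overlapped. CARS, in contrast, stood at 132 and 120 CPM in DMSO and 140 and 128 CPM after MMS, with overlap and no call (0.04, adjusted p = 0.813). FARSA stood at 254 and 279 CPM and then 382 and 342 CPM (0.39 ± 0.11, adjusted p = 0.0165), and FARSB at 101 and 83.2 CPM and then 133 and 113 CPM (0.37 ± 0.13, adjusted p = 0.0447). The phenylalanyl subunits, flat at 8 h, thus both had MMS libraries above DMSO at 24 h. Such a lack of overlap was common: of all genes tested at 24 h, 36.3% had both MMS libraries above both DMSO libraries and 28.0% below. RARS stood at 209 and 171 CPM and then 241 and 202 CPM, and overlapped (0.17, adjusted p = 0.51, or 0.0347 with the replicate block).

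The calls of FARSB, GARS, MARS and NARS at 24 h were lost without MMS replicate 1 or DMSO replicate 2, the library with the highest and the library with the lowest summed cytosolic level of those 4. FARSA and VARS2 lost theirs without DMSO replicate 1 or MMS replicate 1. The adjusted p of these 6 genes in those fits ran from 0.0561 to 0.29. HARS, SARS, TARS, WARS, AARS2 and MARS2 kept the call without each of the 4 libraries. With the replicate block EPRS (0.22, adjusted p = 0.0158), KARS (0.23, 0.016), RARS and YARS (0.20, 0.0197) joined the higher cytosolic genes, and QARS was again lower (-0.22, 0.011). In a fit of the 4 DMSO and MMS libraries at 24 h alone, 4 cytosolic genes passed instead of 9, with FARSA, FARSB, GARS, MARS and NARS lost (adjusted p from 0.0517 to 0.127).

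The mitochondrial genes that rose at 24 h are named after their values were seen, as are other members outside the naming rule. MARS2, the mitochondrial methionyl enzyme, encoded without introns, stood at 21.9 and 19.5 CPM in DMSO and 38.0 and 33.2 CPM after MMS. The groups were far apart, a log2 change of 0.73 ± 0.11 (1.66-fold, adjusted p = 0.000471). AARS2, the mitochondrial alanyl enzyme, stood at 29.1 and 28.9 CPM and then 44.4 and 48.2 CPM (0.62 ± 0.11, adjusted p = 0.0014). VARS2, the mitochondrial valyl enzyme, stood at 41.5 and 49.0 CPM and then 71.2 and 73.4 CPM (0.62 ± 0.18, adjusted p = 0.0177). All 3 had both MMS libraries above both DMSO libraries, as did 36.3% of all genes tested. FARS2 stood at 21.6 and 25.2 CPM in DMSO and 19.1 and 20.1 CPM after MMS, without overlap but also without a call (-0.31, adjusted p = 0.109, or 0.0398 with the replicate block). YARS2 at 32.7 and 33.6 against 41.2 and 36.7 CPM (0.18) and HARS2 at 44.3 and 42.0 against 44.9 and 46.9 CPM (0.03) did not pass, with adjusted p of 0.241 and 0.798.

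**Figure D3:**
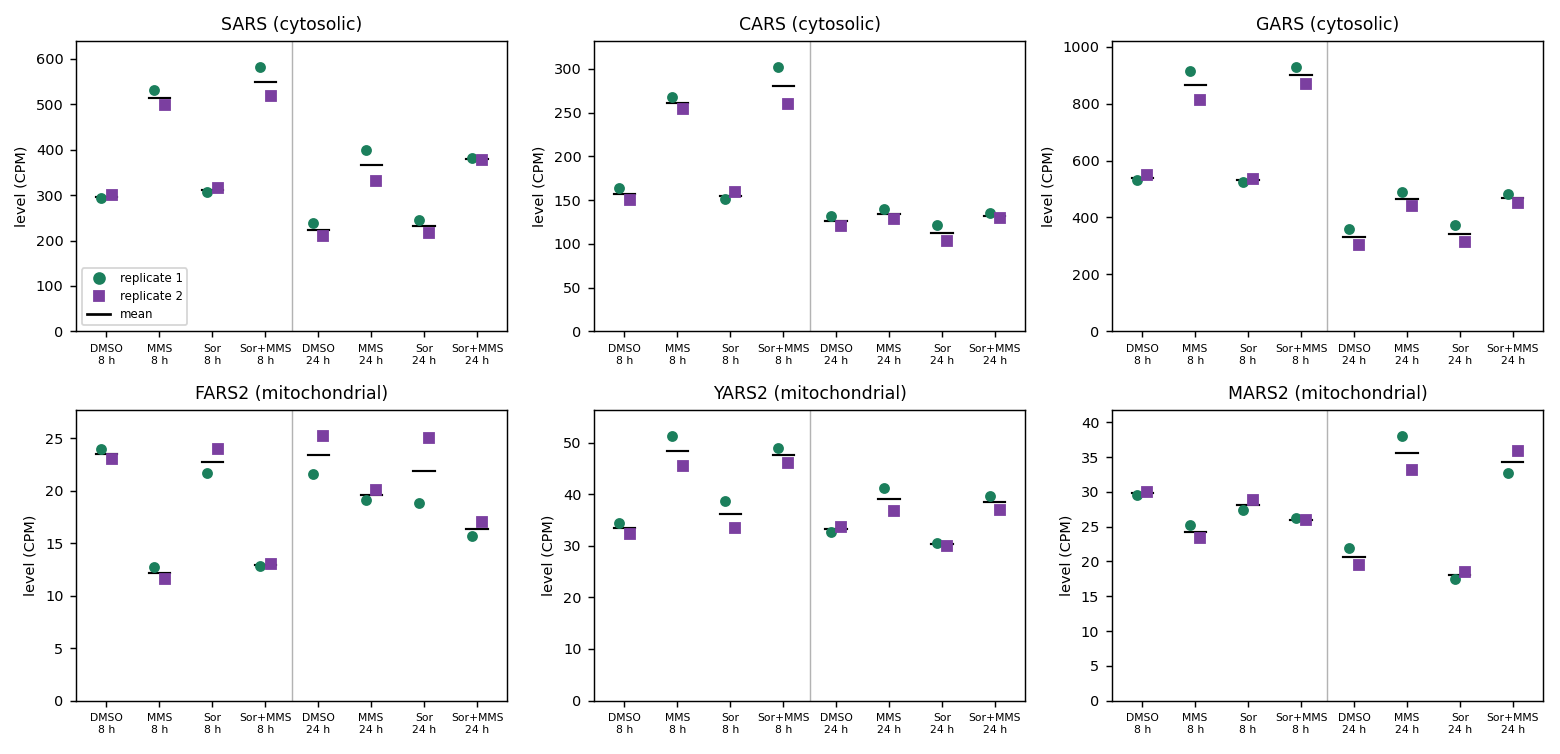
Level (CPM) of SARS, CARS, GARS, FARS2, YARS2 and MARS2 in each of the 16 libraries, with circles for replicate 1, squares for replicate 2 and a line at the group mean. CARS rose at 8 h (164 and 150 to 268 and 254 CPM) and stood at 132 and 120 against 140 and 128 CPM at 24 h, whereas MARS2 stood at 29.5 and 30.0 against 25.3 and 23.4 CPM at 8 h and rose at 24 h.

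The difference of the MMS effect between the times was tested as its own contrast. CARS had a smaller effect at 24 h than at 8 h (difference -0.73, adjusted p = 0.0129), and AARS2 (0.74, adjusted p = 0.0127) and MARS2 (0.98, adjusted p = 0.00242) had larger ones. These were 1 cytosolic and 2 mitochondrial calls, beside 3.53% of all genes with a larger and 5.60% with a smaller effect at 24 h. AARS2 had stood at 31.8 and 34.1 CPM in DMSO and 27.7 and 31.6 CPM after MMS at 8 h. CARS lost the call without MMS replicate 2 at either time or DMSO replicate 2 at 8 h (adjusted p from 0.0507 to 0.077), and AARS2 without MMS replicate 1 at 8 h (0.0542). The blocked fit called 4 cytosolic genes (1 with a larger and 3 with a smaller effect at 24 h) and 5 mitochondrial genes (4 and 1), FARS2 (0.59, adjusted p = 0.016) and YARS2 (-0.39, 0.023) among them, beside 11.0% and 14.6% of all genes.

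The time course of the DMSO cells touches these comparisons, which use the same DMSO libraries. Between 8 h and 24 h in DMSO, 19 of the 20 cytosolic genes had a negative log2 change, with a median of -0.28 beside 0.01 over all genes. The calls were GARS (-0.73, adjusted p = 0.0314), TARS (-0.38, adjusted p = 0.0438) and the mitochondrial MARS2 (-0.55), all lower, beside 0.294% of all genes lower and 0.366% higher. GARS stood at 532 and 548 CPM at 8 h and at 361 and 304 CPM at 24 h. Each of the 3 calls was lost whenever any of the 4 DMSO libraries was left out and in a fit of those 4 alone (adjusted p from 0.237 to 0.352), those of TARS and MARS2 also with no filter (0.051), and with the replicate block 13 cytosolic and 2 mitochondrial genes were lower and 0 higher, beside 6.42% lower and 7.21% higher of all genes. The cytosolic sum after MMS at 24 h (6249 and 5671 CPM) spanned that of DMSO at 8 h (5914 and 5801 CPM). Which part of the 24 h difference lies in the MMS cells and which in the DMSO cells cannot be told apart without an earlier common starting point.

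**Figure D4:**
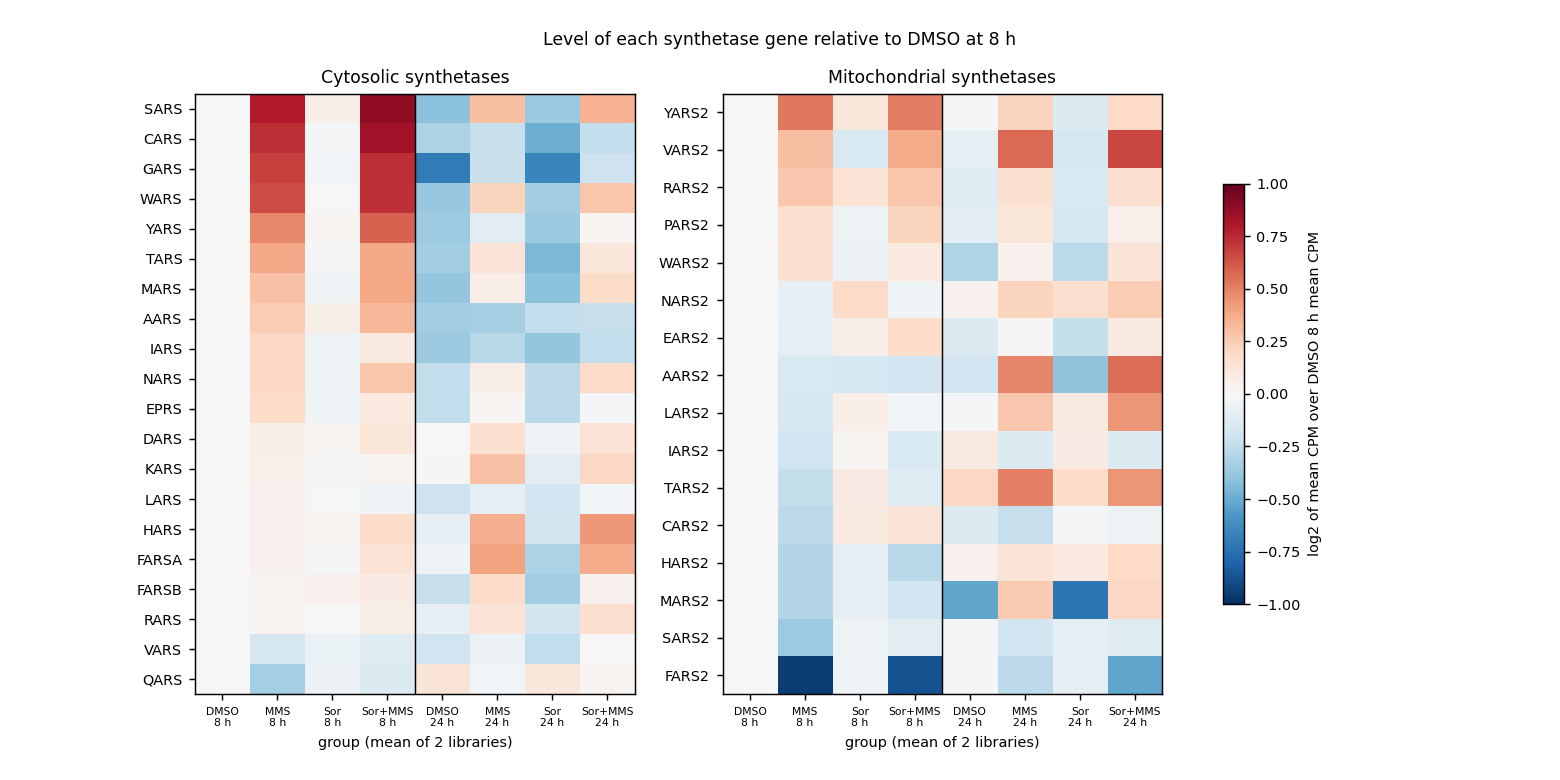
Mean level of each gene in each group relative to DMSO at 8 h, as the log2 of the ratio of mean CPM (colour, from -1 to 1), with cytosolic genes on the left and mitochondrial genes on the right in the order of their value after MMS at 8 h. The columns without MMS at 24 h are mostly blue for the cytosolic genes, which in DMSO summed to 5059 and 4595 CPM at 24 h against 5914 and 5801 CPM at 8 h.

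Sorafenib alone left the synthetases without a single call. Against DMSO 0 of the 36 genes passed at 8 h and 0 at 24 h (edgeR), 0 and 1 had an unadjusted p under 0.05, and DESeq2 called 0 at both times. Of all genes tested, 0.115% were higher and 0.280% lower at 8 h, and 0.244% higher and 0.574% lower at 24 h. The members' log2 changes ran from -0.16 to 0.20 (NARS2, 0.20 ± 0.13) at 8 h and from -0.28 (FARSA, -0.28 ± 0.11, adjusted p = 0.40) to 0.13 at 24 h. SARS stood at 306 and 316 CPM on sorafenib at 8 h against 293 and 301 in DMSO, and at 245 and 216 CPM at 24 h against 238 and 210. FARS2 stood at 21.7 and 24.0 CPM at 8 h and 18.8 and 25.0 CPM at 24 h, overlapping with DMSO at both times.

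In cells already on sorafenib, MMS was followed by nearly the same calls, in libraries that share none with the comparison above. At 8 h the combination against sorafenib had 8 cytosolic genes higher and 0 lower (13.0% and 11.6% of all genes), and 7 of the 8 were shared with MMS against DMSO (87.5% of each list, beside 71.2% and 79.7% of the genes called higher without and with sorafenib). AARS (0.24, adjusted p = 0.059, or 0.0149 with the replicate block) dropped out and NARS (0.30, adjusted p = 0.032) came in. YARS2 was again the 1 mitochondrial gene that rose (0.37 ± 0.11, adjusted p = 0.0267) and FARS2 fell (-0.85 ± 0.14, adjusted p = 0.000947). Each is 6.25% of the mitochondrial set, below the share of all genes. The blocked fit had 9 cytosolic genes higher, and HARS2 (-0.23, adjusted p = 0.0439), IARS2, NARS2 and TARS2 also lower and VARS2 (0.50, 0.000238) also higher, beside 20.6% higher and 19.1% lower of all genes. The cytosolic sum was 5786 and 5809 CPM on sorafenib and 7499 and 7154 CPM in the combination, and the ratio to the mitochondrial sum 7.09 and 7.39 and then 9.62 and 9.18. MARS, NARS, YARS and YARS2 each lost the call in some fits without a library, MARS without sorafenib replicate 1, sorafenib replicate 2 or combination replicate 1, YARS without sorafenib replicate 2 or combination replicate 1, YARS2 without those or combination replicate 2, and NARS without any of the 4 (adjusted p from 0.0533 to 0.209). In a fit of those 4 libraries alone MARS, NARS, TARS and YARS2 lost it (0.0519 to 0.112), and NARS also with RLE factors (0.0553) and with no filter (0.0545).

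SARS stood at 582 and 518 CPM in the combination at 8 h against 306 and 316 CPM on sorafenib (0.80 ± 0.11, adjusted p = 0.000288). CARS stood at 302 and 260 CPM against 151 and 159 CPM (0.83 ± 0.11, adjusted p = 0.000203), and WARS at 329 and 312 CPM against 191 and 196 CPM (0.70 ± 0.09, adjusted p = 0.00016). FARS2 stood at 12.8 and 13.0 CPM against 21.7 and 24.0 CPM. In these 4 genes the combination and sorafenib libraries did not overlap. Of all genes tested, 33.3% had both combination libraries above both sorafenib libraries and 25.0% below. FARSA (0.13), FARSB (0.01), RARS (0.03), LARS2 (-0.13), NARS2 (-0.26) and EARS2 (0.09) did not pass, with adjusted p from 0.196 to 0.983.

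At 24 h the combination against sorafenib had 10 cytosolic genes higher and 0 lower, beside 18.0% and 18.8% of all genes. They were the 9 of MMS against DMSO and KARS, the lysyl enzyme (0.27, adjusted p = 0.0476), where of all genes called higher 85.8% without and 72.4% with sorafenib were shared. AARS2 (0.93 ± 0.11, adjusted p = 9.41e-05), MARS2 (0.89 ± 0.11) and VARS2 (0.79 ± 0.17) rose again, and FARS2 fell (-0.46, adjusted p = 0.0212). The mitochondrial share higher (18.8%) is close to that of all genes and the share lower (6.25%) is below it. AARS2 stood at 23.1 and 26.8 CPM on sorafenib and 45.8 and 51.8 CPM in the combination, MARS2 at 17.5 and 18.5 and then 32.7 and 35.9 CPM, and FARS2 at 18.8 and 25.0 and then 15.7 and 17.0 CPM. None of these 3 overlapped, although the sorafenib libraries of FARS2 lay wide apart. Of all genes tested, 39.0% had both combination libraries above both sorafenib libraries and 31.6% below. FARSB and KARS lost the call without any of the 4 libraries, GARS without sorafenib replicate 2 or combination replicate 1, and FARS2 without those or combination replicate 2 (adjusted p from 0.055 to 0.236). FARSB (0.0551) and KARS (0.0596) also lost it with RLE factors, KARS with no filter (0.0552) and FARS2 in a fit of those 4 libraries alone (0.0916). The blocked fit had 15 cytosolic and 9 mitochondrial genes higher and 2 mitochondrial genes lower, beside 26.6% and 27.8% of all genes.

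The difference between times recurred in sorafenib cells. CARS (-0.64, adjusted p = 0.0197) had a smaller MMS effect at 24 h than at 8 h, and AARS2 (0.97, adjusted p = 0.00336), MARS2 (1.03, adjusted p = 0.00208), FARSA (0.52, adjusted p = 0.0472) and HARS (0.43, adjusted p = 0.0153) had larger ones, beside 4.99% of all genes with a larger and 6.99% with a smaller effect. CARS and FARSA each lost the call in 6 of the 8 fits without a library. For CARS the 2 exceptions were the fits without combination replicate 2 at 8 h or sorafenib replicate 2 at 24 h, and for FARSA those without combination replicate 1 at 8 h or sorafenib replicate 2 at 24 h. HARS lost it in 3, without sorafenib replicate 1 or 2 at 8 h or combination replicate 2 at 24 h (adjusted p of the 3 genes from 0.0521 to 0.14). FARSA also lost it in a fit of those 8 libraries alone (0.0772). The blocked fit called 6 cytosolic genes (4 with a larger and 2 with a smaller effect at 24 h) and 4 mitochondrial genes (all larger), beside 13.7% and 16.7% of all genes. HARS stood at 154 and 156 CPM on sorafenib and 175 and 170 CPM in the combination at 8 h, and at 135 and 135 and then 199 and 213 CPM at 24 h.

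**Figure D5:**
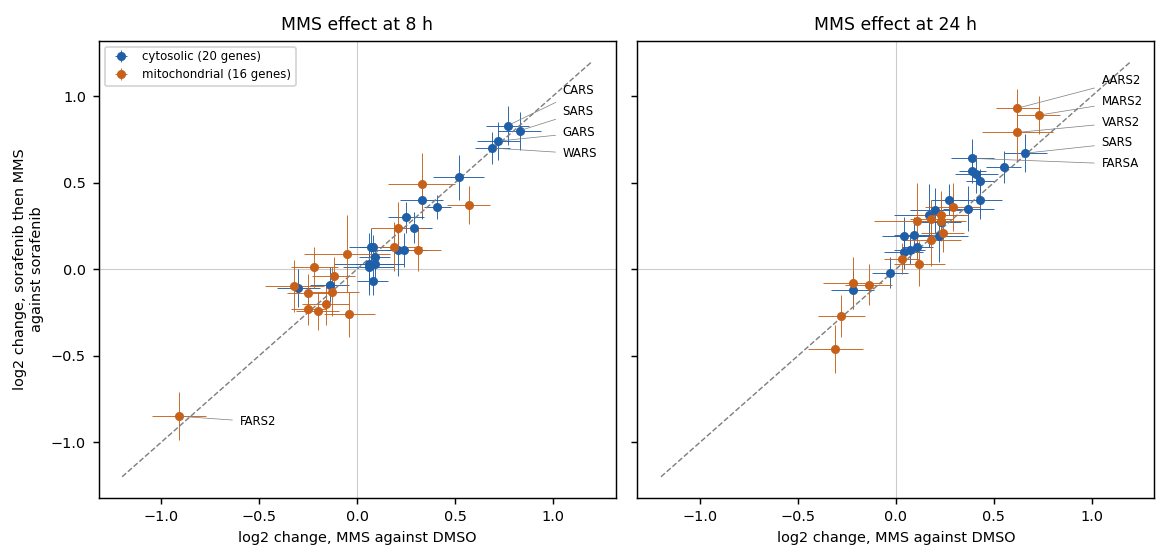
Log2 change of each gene after MMS, without sorafenib on the horizontal axis and in sorafenib cells on the vertical axis, at 8 h (left) and 24 h (right), with cytosolic genes in blue, mitochondrial genes in orange and bars for the standard error. The dashed line marks equal changes, and FARS2 lay at -0.91 and -0.85 and SARS at 0.83 and 0.80 at 8 h.

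The interaction tested directly whether sorafenib altered the MMS effect, and 0 of the 36 genes passed at 8 h or at 24 h in edgeR (0.0% of all genes tested at either time). None of the 36 had an unadjusted p under 0.05 and DESeq2 called 0 of them. The interaction estimates ran from -0.22 (NARS2, SE 0.19) to 0.23 (CARS2, SE 0.17) at 8 h and from -0.15 to 0.30 at 24 h. The combination against MMS alone likewise gave 0 member calls at both times, with 1 gene at 8 h and 0 at 24 h under an unadjusted p of 0.05 and 0 in DESeq2, beside 0.222% higher and 0.401% lower of all genes at 8 h and 0.0143% and 0.108% at 24 h. CARS2, the mitochondrial cysteinyl enzyme, was the 1 member called in the blocked fit, higher in the combination at 8 h (0.34, adjusted p = 0.0211, against 0.242 without the block), where 4.12% of all genes were higher and 5.38% lower. CARS2 stood at 34.9 and 29.8 CPM after MMS and 45.8 and 38.9 CPM in the combination, and at 40.9 and 36.5 CPM in DMSO.

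Genes that work beside the synthetases were read from lists chosen with earlier results of these data known. Their counts stand beside 14.5% of all genes higher and 12.0% lower at 8 h, and 15.2% and 16.3% at 24 h. For the mitochondrial charging list, 2 of 12 higher is close to the share of all genes. Of the 3 scaffold proteins of the multisynthetase complex, AIMP1 rose at 8 h (0.29, adjusted p = 0.00647), and AIMP1 (0.33) and AIMP2 (0.50) at 24 h. Of 12 genes of mitochondrial tRNA charging and elongation, 2 rose at 8 h and 2 at 24 h and 0 fell. GATC, a subunit of the amidotransferase that makes mitochondrial glutaminyl-tRNA, rose at both times (0.40 and 0.45), and its partner QRSL1 at 24 h (0.77, adjusted p = 0.00292). Of 7 proofreading and related genes, 3 rose and 1 fell at 8 h, with the peptidyl-tRNA hydrolase PTRH2 at 0.58 and the tRNA exporter XPOT at 0.33.

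Of 20 genes listed for RNA polymerase III, its factors and its regulation, 6 rose and 2 fell at 8 h and 8 rose and 0 fell at 24 h. The initiation factor subunit BRF2 had the largest change (1.38 at 8 h, adjusted p = 3.39e-05, and 1.09 at 24 h), and GTF3C2 fell at 8 h (-0.56). Of 16 genes of uncharged tRNA sensing and eIF2 control, 4 rose and 2 fell at 8 h and 5 rose and 1 fell at 24 h. For these lists too the shares of all genes were 14.5% higher and 12.0% lower at 8 h, and 15.2% and 16.3% at 24 h. The 2 of 16 lower at 8 h are close to that share. EIF2AK4, which encodes the uncharged-tRNA sensor GCN2, fell at 8 h (-0.78, adjusted p = 0.000417), and PPP1R15A, which directs removal of the phosphate from eIF2, rose (1.84). Of 12 genes listed for the ATF4 program, both regulators and downstream genes such as ASNS, 10 rose and 0 fell at 8 h, with a median of 1.68. At 24 h 6 of them rose and 1 fell, with a median of 0.38. The amplitude differed from that of the synthetases: SESN2 changed by 3.05 and ATF3 by 3.52 at 8 h, while SARS, the leading synthetase, changed by 0.83. Of 8 cytosolic elongation genes 0 rose at 8 h and 1 (EEF2K) fell.

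The strand setting of the counting is not given in the sources used here, and 15 of the 36 members share exon bases with a gene on the opposite strand in GENCODE v29. Of these, 7 share over 200 bases, namely HARS and HARS2 with each other (402), EARS2 with UBFD1 (370), SARS2 with MRPS12 (349), WARS with WDR25 (272), YARS with S100PBP (248) and AARS2 with TMEM151B (235). SARS2 also shares 1492 exon bases with the readthrough gene AC011455.2 on its own strand. Values of these members may hold or lack reads of their neighbours, and this was not tested.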

How the data were processed

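Libraries were made with TruSeq from total RNA of 16 cultures. The authors called reads with CASAVA 1.8.2, aligned them to hg19 with TopHat2 2.0.8b and used HTSeq to count per gene, as the submitters' processing notes list. The annotation, counting mode and strand are not given in the sources used here. The deposited values are raw counts, and 5 rows that name no gene were left out.

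The members and gene lists were chosen with earlier results of these data known. Levels are counts scaled to 1000000 summed gene reads per library. Changes come from edgeR 4.0.16 in R 4.3.3 on the counts, for 13 comparisons. The fit used TMM factors, filterByExpr, 1 mean for each of 8 groups over 16 libraries and a quasi-likelihood test. The Benjamini-Hochberg adjustment ran over 13948 genes, with a threshold of 0.05. Only MMS against DMSO at 8 h was run on simulated counts, which held no effect shared by libraries of the same title start. The p-values measure the spread between 2 libraries a group. Described with every value were, per class, the 3 smallest and 3 largest adjusted p for MMS at 8 h, members with a change of at least 1 on the log2 scale and those called for sorafenib; other members named were chosen after their values were seen.

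Each group has 1 title beginning MDA231 and 1 beginning MDAMB231, a difference that could reflect the experiment. Deviations from group means of libraries with the same title start correlated at 0.489 to 0.707 in 28 of 28 pairs of groups, so a blocked fit is given where it changed a call (biological variation 0.136 without and 0.0632 with the block). Alternatives were RLE factors, no scaling, DESeq2 1.42.0, a filter at a mean count of 50 or none, the block, the compared libraries alone, and each library left out.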

Additional observations from a re-analysis of the deposited data

Results flagged for a closer look

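A difference of the MMS effect between 24 h and 8 h, tested as its own contrast, put 8 results on this list. Without sorafenib, CARS had a difference of -0.73 on the log2 scale (from 0.77 at 8 h to 0.04 at 24 h), AARS2 of 0.74 (from -0.12 to 0.62) and MARS2 of 0.98 (from -0.25 to 0.73). In sorafenib cells the differences were -0.64 for CARS, 0.97 for AARS2, 1.03 for MARS2, 0.52 for FARSA and 0.43 for HARS. CARS, AARS2 and MARS2 were called in both sets of libraries, which do not share any. The difference of FARSA without sorafenib was 0.32 (adjusted p = 0.229) and that of HARS 0.31 (adjusted p = 0.0694, or 0.0218 with the replicate block). The levels in DMSO moved between the times as well, by -0.35 for CARS, -0.22 for AARS2 and -0.55 for MARS2, and the part of this shift in the differences was not tested. Groups of 2 libraries are too small to look for outlying samples.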

How the results depend on the processing

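Of the 58 member calls, 57 held with no scaling, with DESeq2 and with a mean count of at least 50, 54 with RLE factors, 53 with no filter, 58 with the replicate block, 41 with only the compared libraries, and 183 of 264 in the fits without a library. None reversed. Counts of members called moved as follows. The replicate block gave 8 mitochondrial calls for MMS at 8 h (3 without it), 14 cytosolic and 8 mitochondrial at 24 h (9 and 3), 7 and 11 mitochondrial in sorafenib cells at 8 h and 24 h (2 and 4), 1 mitochondrial for the combination against MMS at 8 h (0), 4 cytosolic and 5 mitochondrial for the difference between times (1 and 2), 6 and 4 for that difference in sorafenib cells (3 and 2), and 13 and 2 for DMSO over time (2 and 1). Only the compared libraries gave 4 cytosolic calls for MMS at 24 h, 5 cytosolic and 1 mitochondrial in sorafenib cells at 8 h, and 0 and 0 for DMSO over time. No scaling gave 7 mitochondrial calls in sorafenib cells at 24 h, and 2 cytosolic and 4 mitochondrial for the difference between times. DESeq2 gave 2 cytosolic calls for that difference and 7 for DMSO over time, a mean count of at least 50 gave 2 for that difference, and no filter gave 1 cytosolic and 0 mitochondrial for DMSO over time. The causes were not tested.

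Leaving out each library in turn gave 5 to 6 cytosolic and 2 to 3 mitochondrial calls for MMS at 8 h, 4 to 9 and 2 to 4 at 24 h, 5 to 7 and 1 to 2 in sorafenib cells at 8 h, 7 to 8 and 3 to 4 at 24 h, 0 to 1 and 1 to 3 for the difference between times, 0 to 3 and 2 to 2 for that difference in sorafenib cells, and 0 and 0 for DMSO over time. The lone library then left in a group was taken to have the spread of the other groups. The uncalled genes below changed sign at 8 h when 1 library was left out: FARSA (-0.02, range to 0.14), FARSB (-0.04 in 2 fits, range to 0.15), RARS (-0.15 and -0.08, range to 0.21), EARS2 (0.09 and 0.16, range from -0.34) and NARS2 (0.09, range from -0.21).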
